A study of Mus musculus with 6 samples.

Results

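The 8 genes Cd79a, Cd79b, Pou2af1, Tnfrsf17, Sdc1, Mzb1, Jchain and Pigr, which mark B cells and plasma cells of the gut wall or carry their IgA into the lumen, were followed in the jejunum of mice lacking Hnf4a in the gut epithelium. They were chosen by name, with earlier results of these data known, and all 8 were among the 18193 genes measured. Of the probe sets annotated to that gene alone, the one with the highest mean signal stood for it. Its other probe sets, 3 for Sdc1 and 1 for Pigr, served as a check. RNA came from the distal jejunum of 3 control and 3 mutant littermates of 7 months, 1 Affymetrix array per mouse, and the labels describe biopsies of whole jejunum. All 6 mice carry the strain label B6.129X1(FVB)-Hnf4atm1.1Gonz/J, a line with a conditional Hnf4a allele, were housed pathogen-free and received ketamine and xylazine before they were killed. In mutants Hnf4a was deleted with a Cre transgene under the Villin promoter, which drives expression in the intestinal epithelium. The labels do not say whether control mice carried Cre.

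B cells carry an antigen receptor whose signal passes through the paired chains CD79a and CD79b. After stimulation some become plasma cells, which fill the lamina propria of the small intestine and secrete IgA. The J chain joins IgA into dimers, the polymeric immunoglobulin receptor (pIgR) on the basolateral side of epithelial cells binds these dimers, and the complex is carried through the cell and released at the apical side. The tissue thus holds the source of IgA in lymphoid cells and its carrier in the epithelium, and only the epithelium was the target of the deletion.

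Log2 signals are given as the authors deposited them. A difference is the mutant mean minus the control mean on that scale, so 1 is a 2-fold difference. Hnf4a fell 5.88-fold in the mutants (adjusted p = 0.00756, limma, or 0.0506 without control 2 and 0.205 without control 3 and mutant 2 together). It read 11.82, 11.76 and 11.57 in controls and 8.83, 8.83 and 9.82 in mutants, so mutant 3 kept the most signal of the mutants. Array medians lay between 3.93 and 3.98 and rank correlations between arrays from 0.980 to 0.987. Epithelium markers were high on every array, with list means of 12.3 to 12.6. Control 3 carried pancreatic acinar transcripts, with a mean of 7.78 over 7 markers against 4.19 to 4.41 on the other 5 arrays, and mutant 2 carried fat transcripts, with a mean of 8.28 over 6 markers against 6.73 to 7.04. Only control 1 and mutant 3 read Eif2s3y, a Y-linked gene, above the array median. Xist read 4.95 in control 1 and 4.88 in mutant 3, against 7.94 to 8.87 on the other arrays. Nothing in the labels ties these features to the groups, so values with and without these arrays are given below.

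All 8 genes had a mutant mean above the control mean, and 0 passed the test (limma, Benjamini-Hochberg over 18193 genes, adjusted p from 0.0798 to 0.839), against 0.528% of all genes. At an unadjusted p under 0.05 there were 2 of the 8, Sdc1 and Tnfrsf17, against 12.1% of all genes (5.24% with the mutants higher). These were also the 2 genes whose mutant values all lay above all control values, and groups did not overlap in 17.1% of all genes, with mutants higher in 6.93% and lower in 10.2%. The median difference over the 8 genes was 0.43, where the median over all genes was -0.01 and 46.7% of genes lay above the control mean. The genes share cell types and are not independent of each other. In whole tissue, more cells of a type and more RNA per cell cannot be told apart.

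**Figure D1:**
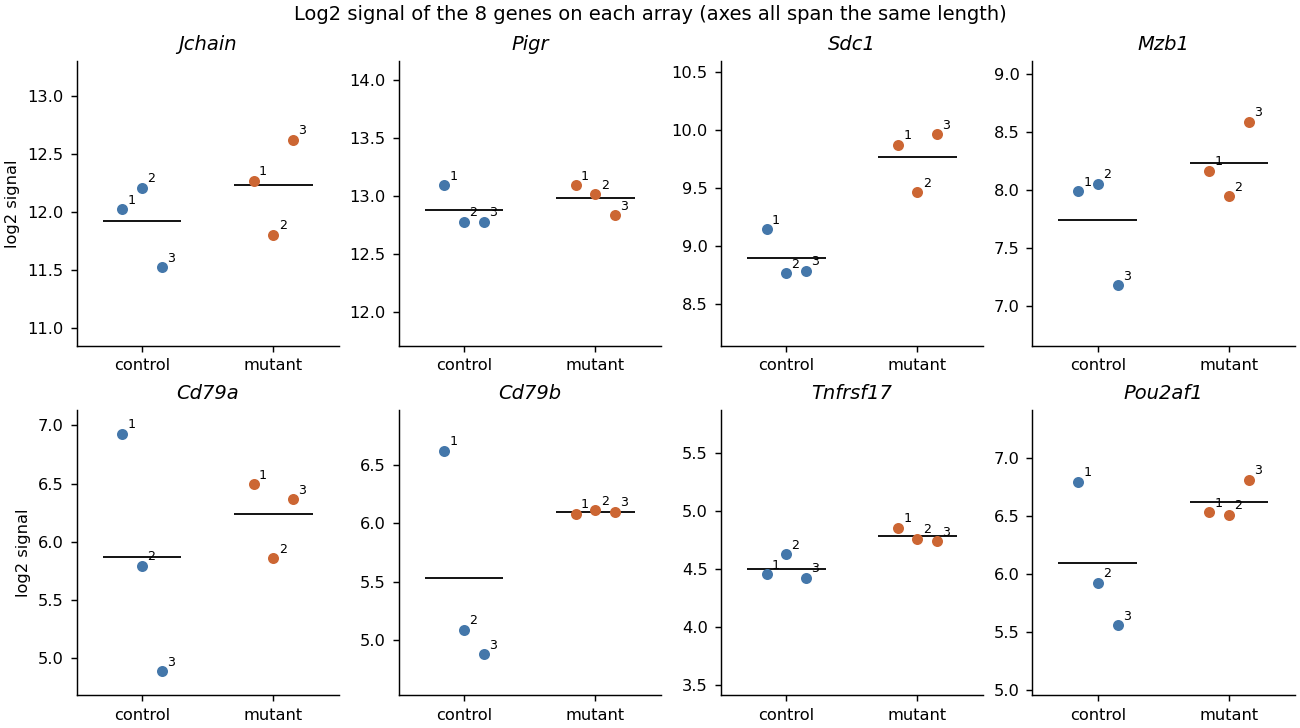
Log2 signal of each of the 8 genes (vertical axes, each spanning the same length) for controls and mutants, with 1 point per mouse numbered by replicate and a bar at the group mean. Sdc1 and Tnfrsf17 have mutants wholly above controls, Pigr is nearly level, and Cd79a, Cd79b and Pou2af1 spread widely among the controls.

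The antigen receptor chains were set apart by the spread among control mice. Cd79a, the alpha signalling chain, read 6.93, 5.79 and 4.88 in controls 1, 2 and 3 and 6.49, 5.86 and 6.36 in mutants 1, 2 and 3. The controls thus spanned 2.04 log2 units, and the mutants lay inside that span. The difference was 0.37 ± 0.45 (SE), with a 95% interval from -0.66 to 1.40 (limma, adjusted p = 0.819). Cd79b, its partner chain, read 6.63, 5.08 and 4.87 in the controls and 6.08, 6.11 and 6.10 in the mutants. The mutants were within 0.03 of each other while the controls spanned 1.75, with control 1 above all mutants and controls 2 and 3 below them. The difference was 0.57 ± 0.40 (SE), with an interval from -0.35 to 1.49 (limma, adjusted p = 0.647).

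These values turned on control 1. Without it the difference of Cd79b became 1.12 and passed the test (limma, adjusted p = 0.0248), and that of Cd79a became 0.90 (adjusted p = 0.332). Without control 3, the control with pancreatic transcripts, Cd79a turned to -0.12 and Cd79b became 0.24. Control 1 also held Y-linked transcripts. In the 4 arrays without them, controls 2 and 3 against mutants 1 and 2, Cd79a differed by 0.84 and Cd79b by 1.12. In the pair with them, control 1 against mutant 3, the differences were -0.56 and -0.52. Y-linked transcripts were also added as a term in the fit, a choice made after the data were seen. Both groups held equally many arrays with these transcripts, so the term could change only the p-values. The differences of Cd79a (0.37) and Cd79b (0.57) were therefore those of the main fit. Neither passed (limma, adjusted p = 0.753 and 0.511). The part of sex itself in these values was not tested.

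Pou2af1, the coactivator OBF-1 that B cells use at octamer sites, had a like order of arrays. It read 6.80, 5.93 and 5.56 in the controls and 6.53, 6.51 and 6.81 in the mutants. Control 1 lay among the mutants and the other controls beneath them. The difference was 0.53 ± 0.28 (SE), with an interval from -0.12 to 1.17 (limma, adjusted p = 0.525), 0.88 without control 1 and 0.26 without control 3. The span among controls exceeded that among mutants in 6 of the 8 genes, whereas it did so in 36.6% of all genes.

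Among plasma cell genes, Tnfrsf17 encodes BCMA, the receptor through which plasma cells receive the survival factors APRIL and BAFF. Its log2 signal was 4.46, 4.63 and 4.43 in controls and 4.86, 4.76 and 4.74 in mutants. All mutants were above all controls, by a narrow margin and near the lower end of the array's scale, though above the median of each array. The difference was 0.28 ± 0.10 (SE), with an interval from 0.05 to 0.52, and it did not pass the test over all genes (limma, unadjusted p = 0.0248, adjusted p = 0.319). It lay between 0.24 and 0.34 when any 1 array was left out.

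Mzb1 encodes an endoplasmic reticulum protein that assists immunoglobulin assembly and secretion. It read 7.99, 8.06 and 7.18 in controls and 8.17, 7.95 and 8.59 in mutants. Control 3 was the low value, and mutant 2 lay under both other controls. The difference was 0.49 ± 0.25 (SE), with an interval from -0.09 to 1.08 (limma, adjusted p = 0.506). It was 0.21 without control 3, 0.32 without mutant 3, 0.64 without mutant 2 and 0.36 without control 3 and mutant 2 together. Jchain, the joining chain of polymeric IgA and IgM, read 12.02, 12.21 and 11.52 in controls and 12.27, 11.80 and 12.62 in mutants. Its groups overlapped, with control 3 lowest, mutant 2 next and mutant 3 highest, the same places that these arrays took for Mzb1. The difference was 0.31 ± 0.24 (SE), with an interval from -0.23 to 0.86 (limma, adjusted p = 0.680). It was 0.12 without control 3 or mutant 3, 0.53 without mutant 2 and 0.33 without control 3 and mutant 2 together. The Jchain interval covers ratios of mutant over control from 0.850 to 1.81.

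**Figure D2:**
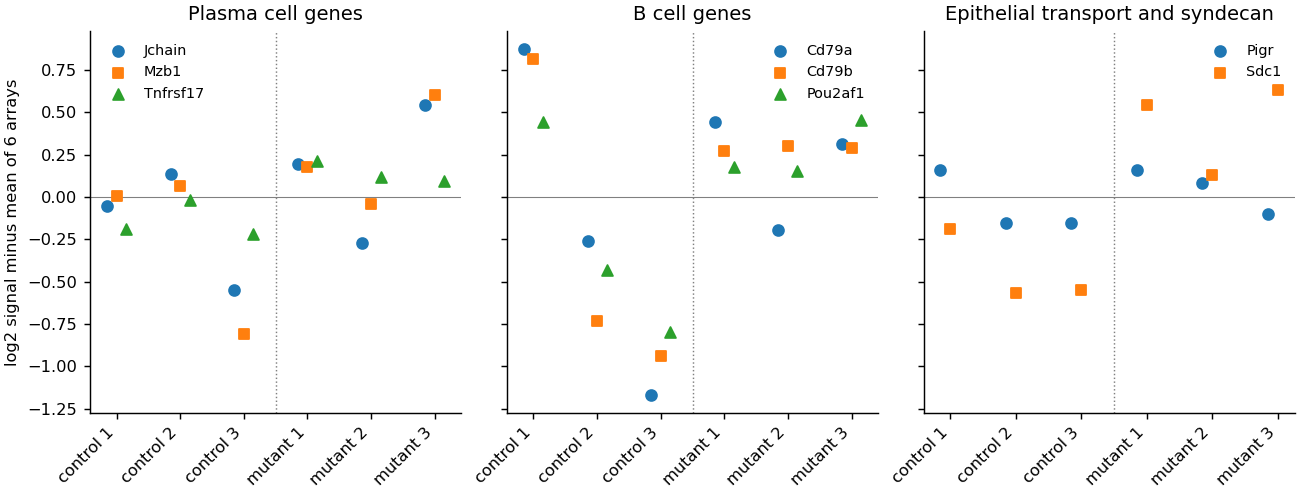
Log2 signal minus the gene's mean over the 6 arrays (vertical axis) on each array (horizontal axis), with 1 marker shape per gene and a dotted line between controls and mutants. Jchain and Mzb1 are lowest in control 3 and highest in mutant 3, Cd79a and Cd79b are highest in control 1 and lowest in control 3, and only Sdc1 and Tnfrsf17 separate the groups.

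Control 3 gave the lowest value of 7 of the 8 genes, Sdc1 being the exception, while it was lowest in 13.4% of all genes. For Pigr it was almost tied with control 2 (12.778 against 12.779). The plasma cell genes and the receptor chains differed in the other arrays. Jchain and Mzb1 were second lowest in mutant 2, whereas Cd79a, Cd79b and Pou2af1 were second lowest in control 2. Over the 6 B and plasma cell genes other than Sdc1 and Pigr, the mean was 7.47, 6.95 and 6.41 in controls 1, 2 and 3 and 7.40, 7.17 and 7.54 in mutants 1, 2 and 3. The pancreatic signal of control 3 moved with these low values, and its part in them was not tested. Without control 3 the median difference of these 6 genes was 0.23, and without control 1 it was 0.75.

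Sdc1 showed the largest difference of the 8 genes. It encodes syndecan-1 (CD138), a cell surface heparan sulfate proteoglycan that is used to identify plasma cells and is also abundant on the basolateral surface of gut epithelium. It read 9.14, 8.76 and 8.78 in controls and 9.87, 9.46 and 9.96 in mutants. All mutants lay above all controls. The difference was 0.87 ± 0.17 (SE), or 1.82-fold with an interval from 1.40-fold to 2.38-fold, and narrowly missed the threshold over all genes (limma, unadjusted p = 0.000774, adjusted p = 0.0798). Its other probe sets differed by 0.82, 0.66 and 0.47. Groups did not overlap in the first and second of these, while in the last control 1, at 6.01, lay above mutant 2, at 5.89. None of the 4 probe sets passed in the fit over all probe sets (limma, adjusted p from 0.127 to 0.470), where 0.193% passed. All 4 had an unadjusted p under 0.05 (limma). Sdc1 was less tied to single arrays than the receptor chains were, with differences of 0.77 to 1.02 when any 1 array was left out and 0.96 without control 3 and mutant 2 together. Its adjusted p was 0.0365 with the presence of Y-linked transcripts as a term in the fit, a choice made after the data were seen, and above the threshold under the other 15 alternatives (0.0568 to 0.341).

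Pigr, which encodes the epithelial carrier of IgA, was nearly level between the groups. It read 13.09, 12.78 and 12.78 in controls and 13.09, 13.01 and 12.83 in mutants. The groups overlapped almost wholly. The difference was 0.10 ± 0.13 (SE) (limma, adjusted p = 0.839), and its 95% interval, from 0.872-fold to 1.31-fold, bounds the change on the array's scale. The other Pigr probe set differed by 0.12 ± 0.13 (SE), from 12.62 in controls to 12.74 in mutants. Pigr lay above 99.7% of probe sets on every array and Jchain above 98.9%, close to the top of the scale.

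**Figure D3:**
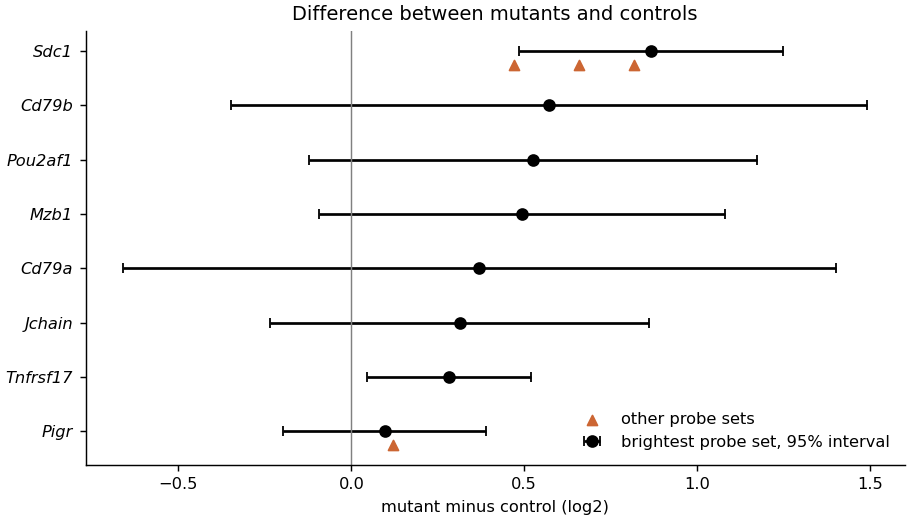
Mutant minus control difference in log2 signal (horizontal axis) for each gene, as black points with 95% intervals from limma, and the other probe sets of Sdc1 and Pigr as triangles. All 8 points lie above 0, and the intervals of Sdc1 (0.49 to 1.25) and Tnfrsf17 (0.05 to 0.52) leave 0 out before adjustment over all genes.

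Promoter windows are shown for the epithelial carrier Pigr, for Sdc1 as the largest difference, and for Tnfrsf17 and Jchain as plasma cell genes whose groups did and did not separate. Sequences are RefSeq's on GRCm38.p6, the 250 bases before the annotated start, 5′ to 3′ on the gene's strand. Of the 8 genes, 6 had an entry, and Cd79b and Mzb1 had none. The windows are chr1:130826434-130826683 (plus strand) for Pigr, chr12:8771146-8771395 (plus strand) for Sdc1, chr16:11313559-11313808 (plus strand) for Tnfrsf17 and chr5:88527898-88528147 (minus strand) for Jchain. Capitals mark motif matches.
Pigr: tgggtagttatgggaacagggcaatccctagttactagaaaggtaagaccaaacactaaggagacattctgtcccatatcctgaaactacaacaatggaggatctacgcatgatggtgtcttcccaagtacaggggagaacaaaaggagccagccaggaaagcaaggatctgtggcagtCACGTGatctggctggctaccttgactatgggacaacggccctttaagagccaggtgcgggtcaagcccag
Sdc1: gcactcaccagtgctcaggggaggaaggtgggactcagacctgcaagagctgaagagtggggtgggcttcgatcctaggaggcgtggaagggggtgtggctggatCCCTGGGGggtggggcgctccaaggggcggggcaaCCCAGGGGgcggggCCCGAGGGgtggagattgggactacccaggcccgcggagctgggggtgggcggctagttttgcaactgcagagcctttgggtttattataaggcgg
Tnfrsf17: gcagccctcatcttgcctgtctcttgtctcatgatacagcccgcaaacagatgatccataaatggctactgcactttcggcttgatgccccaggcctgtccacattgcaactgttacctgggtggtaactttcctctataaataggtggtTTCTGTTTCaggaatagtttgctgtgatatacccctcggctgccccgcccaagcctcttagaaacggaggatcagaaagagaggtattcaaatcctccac
Jchain: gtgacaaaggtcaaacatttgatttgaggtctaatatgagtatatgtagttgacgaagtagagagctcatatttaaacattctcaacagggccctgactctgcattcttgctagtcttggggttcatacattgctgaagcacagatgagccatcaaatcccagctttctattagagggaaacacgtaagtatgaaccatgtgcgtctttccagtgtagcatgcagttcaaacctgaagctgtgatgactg

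Motifs were searched on both strands and no matches overlapped. In Pigr the capitals are the E-box CACGTG, 71 to 66 bases before the start, a motif held by 6.02% of the 32851 promoter windows of the same length. USF factors, which bind E-boxes, are known regulators of pIgR, and here Usf1 differed by 0.18 ± 0.13 (SE) and Usf2 by 0.03 ± 0.10 (SE), neither past the test. In Sdc1 they are 3 matches to CCCNNGGG, a core of the site of the B cell factor EBF, found in 11.8% of windows and added after the other searches were seen. In Tnfrsf17 they are 1 match on the opposite strand to GAAANNGAA, a core of the interferon response element, found in 7.13% of windows. The octamer ATGCAAAT, the element at which Pou2af1 acts and found in 1.60% of windows, and CAAAGTCCA, a core of the HNF4 site found in 0.384%, had 0 matches among the 6 genes. Jchain, Cd79a and Pou2af1 had no match to any of the 5 motifs. Other forms of the HNF4 site were not searched, and the printed Jchain window holds the similar letters caaaggtca near its 5′ end. A match is a description of letters, and Sdc1 and Tnfrsf17, whose groups were apart, shared none.

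Immunoglobulin transcripts themselves give a further measure of plasma cells. Probe sets for these genes share near-identical sequence with other family members, so which gene each one reads is uncertain, and Igha was singled out after its values were seen. Its brightest probe set read 13.74, 13.85 and 13.61 in controls and 13.85, 13.62 and 14.03 in mutants. The groups overlapped. The 3 probe sets of Igha, the constant region of IgA, differed by 0.07 to 0.10, each less than its standard error of 0.13 to 0.15. Igha lies near the top of a scale that ended at 14.5. Of 45 probe sets with 1 immunoglobulin symbol, 0 passed the test over all probe sets (limma, 8 at an unadjusted p under 0.05), 33 lay above the control mean and 12 below it, and 14 were under the median of their array on all 6 arrays.

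Of 21 immunoglobulin genes, read from their brightest probe sets, 0 passed over all genes and 4 had an unadjusted p under 0.05 (limma). Their median difference was 0.11, or 0.04 without control 3 or mutant 3. The 2 with the smallest p were a kappa variable gene of the Igkv14 family, at 0.48 ± 0.16 (SE), and Ighg3, an IgG heavy chain, at 0.91 ± 0.32 (SE). The kappa gene lay higher in every mutant than in any control, and Ighg3 overlapped, with 5.70 in control 1 against 5.56 in mutant 1. The mean over the 21 genes was 6.43, 6.25 and 5.96 in controls 1, 2 and 3 and 6.42, 6.22 and 6.44 in mutants 1, 2 and 3, again with control 3 lowest.

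**Figure D4:**
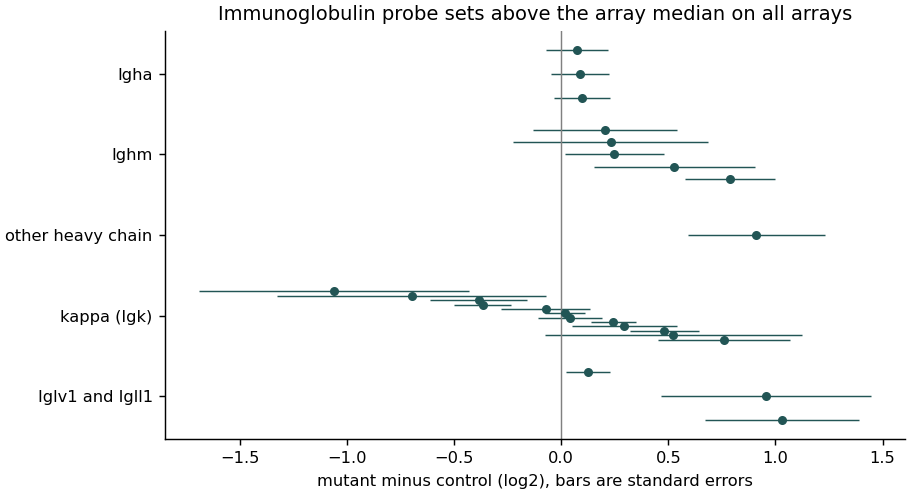
Mutant minus control difference in log2 signal (horizontal axis) for the 24 immunoglobulin probe sets with 1 symbol that lay above the array median on all 6 arrays, by class, with standard errors from limma as bars. The 3 Igha probe sets sit close to 0, all 5 Ighm probe sets lie above 0 (0.20 to 0.79), and the 12 kappa probe sets run from -1.06 to 0.76.

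Other B cell markers showed the same dependence on single controls. Of 21 measured genes, 0 passed (limma, 1 at an unadjusted p under 0.05) and 18 lay above the control mean, with a median of 0.23, or 0.07 without control 3 and 0.41 without control 1. Bank1, a scaffold of B cell receptor signalling, differed by 0.73 ± 0.30 (SE) and Ly86, the partner of RP105 on B and myeloid cells, by 0.43 ± 0.21 (SE). Among these markers 8 were under the array median on every array. The list mean was 4.86, 4.12 and 4.20 in controls 1, 2 and 3 and 4.58, 4.71 and 4.68 in mutants 1, 2 and 3. Control 1 was thus the highest of all arrays, as for Cd79a and Cd79b. The 4 measured germinal centre genes had 0 past the test (limma, 1 at an unadjusted p under 0.05) and a median of 0.01, from -0.12 without mutant 3 to 0.15 without mutant 1. Among them Rgs13, a G protein regulator of germinal centre B cells that tuft cells also express, differed by 0.98 ± 0.20 (SE, adjusted p = 0.0973), and Bcl6, the germinal centre repressor, by -0.09 ± 0.18 (SE).

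Plasma cell factors and secretory genes included 1 gene that rose, Ckap4, among 17 measured, with 0 lower and 16 not past the test. Ckap4 encodes a membrane protein of the endoplasmic reticulum that many cell types express, so it does not define plasma cells. It read 7.31, 6.95 and 6.93 in controls and 8.20, 8.14 and 8.22 in mutants. The groups were far apart, at 1.13 ± 0.13 (SE), or 2.18-fold (limma, adjusted p = 0.0127). The call was lost without control 2 (adjusted p = 0.0687), control 3 (0.0851) or mutant 2 (0.0530), and without control 3 and mutant 2 together (0.268). The difference stayed between 0.90 and 1.25 over the 16 alternatives, some of which cannot move a difference of means. The list median was 0.17, or 0.11 without control 3, and 13 genes lay above the control mean.

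B cell receptor signalling had 0 of 16 genes past the test (limma, 6 at an unadjusted p under 0.05), a median of 0.24 and 12 genes above the control mean. Inpp5d, the inhibitory phosphatase SHIP-1, differed by 0.57 ± 0.11 (SE, adjusted p = 0.0865), and Vav1, a guanine nucleotide exchange factor, by 0.77 ± 0.16 (SE). Without control 1, Vav1 passed (limma, adjusted p = 0.0448). Many genes of this list also act in T cells and myeloid cells. Octamer and lymphoid transcription factors had 0 of 8 past (limma, 2 at an unadjusted p under 0.05) and a median of 0.40, or 0.25 without control 3 or mutant 2. Ets1, a lymphoid factor, differed by 0.58 ± 0.15 (SE), and Spib, a factor of B cells and M cells, by 0.96 ± 0.26 (SE). Spib read 6.11, 5.01 and 5.16 in controls and 6.48, 6.43 and 6.24 in mutants, so all mutants were above all controls, and without control 1 it passed (1.30, limma, adjusted p = 0.0246).

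For the homing of IgA cells, 0 of 14 genes passed (limma, 5 at an unadjusted p under 0.05), with a median of 0.22, or 0.35 without mutant 2. Itgb7, the beta chain of the gut homing integrin, differed by 0.62 ± 0.13 (SE, adjusted p = 0.0912), from 5.47 to 5.83 in controls to 6.13 to 6.27 in mutants. Cxcl13, the chemokine that draws B cells into follicles, read 6.68, 5.67 and 5.06 in controls and 7.04, 7.25 and 7.19 in mutants, a difference of 1.36 ± 0.35 (SE, adjusted p = 0.170). Control 1 was the control nearest to the mutants, and without it Cxcl13 passed (1.79, limma, adjusted p = 0.0249). Without mutant 1, Cxcr4, the receptor for CXCL12, passed instead (limma, adjusted p = 0.0498). Signals for IgA class switch and survival had 0 of 18 past (limma, 5 at an unadjusted p under 0.05) and a median of 0.07, from 0.03 without control 3 to 0.14 without mutant 1. Aldh1a1, a retinoic acid synthesis enzyme, differed by -0.69 ± 0.19 (SE) and Tgfbr2, a TGF-beta receptor chain, by 0.40 ± 0.13 (SE).

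On the transport side, signals that regulate Pigr had 0 of 19 genes past the test (limma, 5 at an unadjusted p under 0.05), with a median of 0.10, or 0.16 without control 1 or mutant 1. Tlr4, the receptor for lipopolysaccharide, differed by 0.97 ± 0.20 (SE, adjusted p = 0.0964) and Ifngr2, a chain of the interferon gamma receptor, by -0.58 ± 0.18 (SE). Tlr4 passed without mutant 1 (limma, adjusted p = 0.0314) and with array weights (adjusted p = 0.0428). The transcytosis machinery had 0 of 14 past (limma, 1 at an unadjusted p under 0.05) and a median of -0.07, or -0.03 without mutant 1. Rab17, an epithelial GTPase of transcytosis, read 8.97, 9.30 and 9.10 in controls and 8.76, 8.71 and 8.44 in mutants, wholly lower at -0.49 ± 0.13 (SE, adjusted p = 0.189), and the apical fusion protein gene Stx3 differed by -0.24 ± 0.12 (SE). Other syndecans and heparan sulfate genes had 0 of 11 past (limma, 3 at an unadjusted p under 0.05), with 8 below the control mean and a median of -0.15, or -0.10 without mutant 3. Ext1, which builds the sugar chain, differed by 0.46 ± 0.14 (SE) and Hpse, which cuts it, by -0.30 ± 0.11 (SE).

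Markers of other cell types stood beside these values. All 12 measured T cell markers lay above the control mean, with 6 at an unadjusted p under 0.05 and 0 past the test (limma), and their mean ranged from 5.40 to 6.52 in controls and from 6.38 to 7.03 in mutants, control 1 being the highest control. Among 12 myeloid markers 11 lay above the control mean and 0 passed (limma, 5 at an unadjusted p under 0.05), with means of 7.02 to 7.10 in controls and 7.16 to 7.51 in mutants. Follicle and M cell markers included 1 gene of 6 past the test, Marcksl1, a MARCKS-related protein gene of many cell types, at 1.20 ± 0.17 (SE, limma, adjusted p = 0.0307). Omission of control 2, control 3, mutant 2 or mutant 3 ended that call (adjusted p of 0.126, 0.145, 0.107 and 0.0584), as did the replicate block (0.104) and omission of control 3 with mutant 2 (0.415). Of the 6 genes in this list 3 lay above the control mean and 3 below it, with a median of 0.09. Those below were Ccl9 at -0.44 ± 0.10 (SE), Gp2 at -0.32 ± 0.16 (SE) and Ccl20 at -0.03 ± 0.15 (SE). The M cell marker Gp2 was under the array median on 4 arrays. Of 10 epithelium markers 5 lay above the control mean and 5 below it, and 0 passed (limma, 2 at an unadjusted p under 0.05). Their median was -0.01, with means of 12.4 in all controls and 12.3 to 12.6 in mutants. Cdh1, the adhesion protein E-cadherin, differed by 0.33 ± 0.10 (SE) and the keratin gene Krt18 by 0.68 ± 0.23 (SE). Of the 5 below, Epcam differed most, by -0.19 ± 0.17 (SE). The part of these cell types in the values of Sdc1 and the other genes was not tested.

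**Figure D5:**
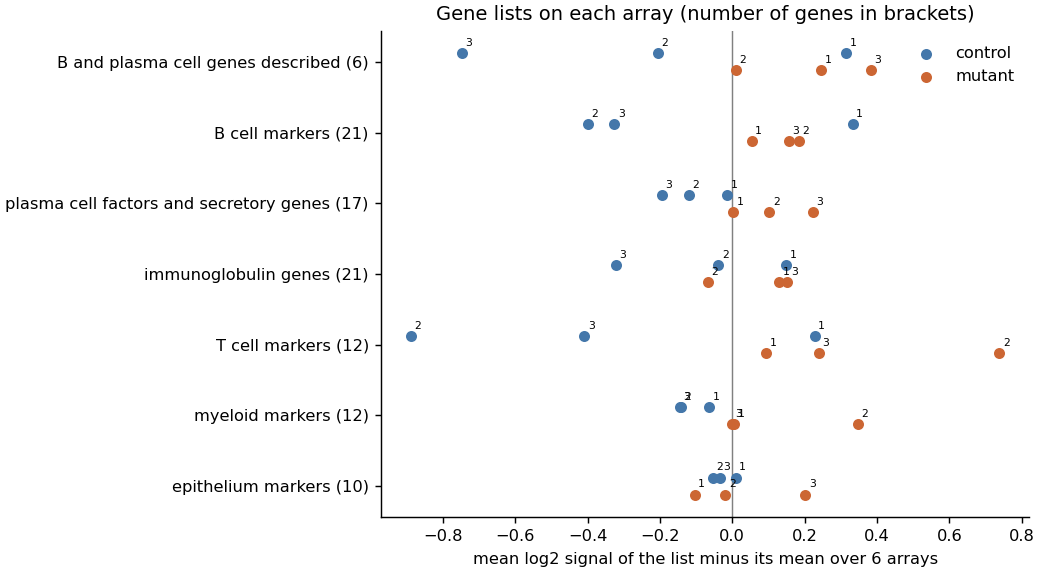
Mean log2 signal of each gene list minus its mean over the 6 arrays (horizontal axis), with 1 point per mouse numbered by replicate. Control 1 lies with the mutants for the B cell, immunoglobulin and T cell lists, as does control 2 for the immunoglobulin list. Control 3 is lowest for the top row, the 6 B and plasma cell genes other than Sdc1 and Pigr. Epithelium markers spread least among the 7 rows plotted.

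Genes with the most similar pattern were sought for the 6 genes whose values spanned at least 1 log2 unit, among 9089 genes brighter than the median gene, by the root mean square difference of values centred over the 6 arrays. St6gal1, a sialyltransferase gene, was nearest to both Jchain (0.08) and Mzb1 (0.11). Tmigd1 was also among the 3 nearest to both (0.15 each), with Saa3 (0.14) for Jchain and Foxa1 (0.17) for Mzb1. Hvcn1, a proton channel gene, was nearest to both Cd79a (0.32) and Cd79b (0.10). B3gnt3 was the next nearest to both (0.33 and 0.18), and Gpsm3 (0.34) was also among the 3 nearest to Cd79a. Ltb, which encodes lymphotoxin beta, was among the 3 nearest to Cd79b (0.23) and Pou2af1 (0.16). Tut4 lay closer to Pou2af1 (0.14) than Ltb did. H2-DMb2, of MHC class II loading, was nearest to Pou2af1 (0.14), and Akr1b8, an aldo-keto reductase gene, to Sdc1 (0.07). Akr1b8 read 6.63, 6.35 and 6.42 in controls and 7.37, 7.01 and 7.64 in mutants. Cotl1 (0.13) and Plekhg3 (0.14) were the next nearest to Sdc1. Jchain and Mzb1 shared 2 of their 3 nearest genes, as did Cd79a and Cd79b. None of the 3 nearest to Sdc1 was among the 3 nearest to another of the 6 genes searched. With 6 arrays, such likeness is a description.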

How the data were processed

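Total RNA of distal jejunum from 3 control and 3 mutant mice was measured on Affymetrix arrays, 1 per mouse. The deposited values are log2 signals per probe set, a scale read from the values (1.80 to 14.5). The authors' background correction, summarisation and normalisation are stated neither by the labels nor by the file, and no further normalisation was applied. Of 45037 probe sets left after 64 control probe sets were removed, 34945 had 1 symbol in the platform annotation. The brightest per gene gave 18193 genes. Groups came from the sample titles. They were compared with limma 3.58.1 in R 4.3.3 (lmFit, eBayes, two-sided, Benjamini-Hochberg over all genes, threshold 0.05), with group as the only term. The procedure was tested on simulated data. The number of arrays limits the precision, and p-values rest on the spread between mice.

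The 8 genes and the lists were chosen with earlier results of these data known. Genes named are the 8, Hnf4a, list genes past the test or otherwise the 2 with the smallest p, markers, and the nearest patterns, and others are said to be chosen after their values were seen. Alternatives were quantile normalisation, median centring, a filter on dim probe sets, other choices of probe set, trend with robust fitting, array weights, the replicate number as a block, and omission of arrays. A term for Y-linked transcripts was added after the data were seen.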

Additional observations from a re-analysis of the deposited data

How the results depend on the processing

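The direction of 7 of the 8 genes held under all 16 alternatives, and Cd79a ranged from -0.12 (without control 3) to 0.90 (without control 1) with 1 array left out. Some alternatives, such as trend with robust fitting, the replicate block and the term for Y-linked transcripts, change p-values only. Other choices of probe set cannot move a gene with 1 probe set. The number of these genes past the test, 0, ranged from 0 to 1 with an array left out. It was 1 without control 1 (Cd79b), where 0.418% of all genes passed. With Y-linked transcripts as a term it was 1 (Sdc1), where 1.07% of all genes passed. Groups that did not overlap, 2 of 8, ranged from 2 to 6 with 1 array left out (6 without control 1, where 28.0% of all genes did not overlap, and 4 without mutant 2, where 28.5% did not) and were 4 without control 3 and mutant 2 together, where 37.0% did not. Over all genes the count of 96 changed genes became 150 with array weights, 62 with the replicate block, 194 with Y-linked transcripts as a term and 4 without control 3 and mutant 2 together, and ranged from 22 to 96 with 1 array left out. Fewer arrays give less power, and the cause of the other changes was not tested. Same-numbered controls and mutants shared little deviation (correlations 0.07, 0.07 and -0.02). This cannot settle whether the numbers pair the mice, because arrays also carried features of their own. The replicate block left 0 of the 8 genes past the test, where 0.341% of all genes passed. Signals near the top of the scale (Igha, Pigr, Jchain) and near the array median (Tnfrsf17) limit what their differences can show.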

Other observations

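The mice with Y-linked transcripts, control 1 and mutant 3, held the highest value of 6 of the 8 genes, Cd79a and Cd79b in control 1 and Jchain, Mzb1, Sdc1 and Pou2af1 in mutant 3, while these arrays held the highest value in 35.9% of all genes. In the other 4 arrays all 8 genes were higher in the mutants, by a median of 0.61, and groups did not overlap in 6 of the 8, where 41.4% of all genes did not overlap with so few arrays. In the pair with Y-linked transcripts 5 of the 8 were higher in the mutant, and Cd79a, Cd79b and Pigr were lower, Pigr by -0.26. These splits were made after the data were seen and hold 2 arrays or 1 per group, and no test was made.

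Single immunoglobulin probe sets stood far apart in single mice, and these were picked after their values were seen. A probe set annotated to several immunoglobulin lambda genes read 9.08 in control 1 and 8.86 in mutant 2, against 3.84 to 5.79 on the other 4 arrays. A probe set of Igk read 5.94 in mutant 2 against 7.43 to 8.99 on the other 5, and one of Igkv6-14 read 8.75 in mutant 1 against 5.88 to 7.50. These are gaps between single mice, a different measure from a difference of group means. Among the 8 genes such gaps were also wide, with controls spanning 2.04 for Cd79a and 1.75 for Cd79b.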
